A study of Mus musculus with 10 samples.

Results

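Circulating neutrophils of infarcted mice that received mesenchymal stromal cells (MSC) were compared, gene by gene, with those of infarcted mice that did not. The comparison used 4 of the 10 libraries of the series, chosen by their labels: Blood 21 and Blood 22, without MSC treatment, and Blood + MSC 23 and Blood + MSC 24, with MSC treatment. All mice were C57Bl/6J males of 12 to 16 weeks that underwent ligation of the left coronary artery (LCA), so the Blood libraries were infarct controls and no unoperated mouse entered the comparison. In the MSC group, syngeneic bone-marrow MSC were given subcutaneously right after ligation, with 1000000 cells at each of 3 sites. Blood was taken on day 3, cells were selected with anti-Ly6G microbeads on magnetic columns, and total RNA was sequenced after ribosomal RNA depletion. The other 6 libraries (3 MI and 3 MI + MSC) came from the infarcted heart of the same design.

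The methods of the study name the single animal as the unit of in vivo work unless stated otherwise, and the labels do not name the animal behind each library. The batch label of each library named its treatment group, so batch and MSC treatment cannot be told apart. In these bulk samples, fewer cells of a type and less RNA per cell cannot be told apart either.

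Neutrophils are short-lived phagocytes that leave the bone marrow with preformed granules. Azurophil, specific and gelatinase granules are filled in that order during maturation, so that transcripts of specific granule proteins such as Ltf and Camp mark younger cells. Mature mouse neutrophils carry the surface protein Ly6G, the handle of the microbeads used here, and hold large amounts of the calcium-binding proteins S100A8 and S100A9. Type I interferon acts through the receptor chains IFNAR1 and IFNAR2 and the kinases JAK1 and TYK2 on transcription factors that bind the interferon-stimulated response element in front of antiviral genes. The Ifit genes are among the most strongly induced of these, and encode proteins that bind foreign RNA and hold back its translation.

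Depth set the frame for every value. Blood 21 held 268860 reads on genes, against 2957308 in Blood 22, 6339922 in Blood + MSC 23 and 8602711 in Blood + MSC 24. A single read was worth 7.07 normalised counts in Blood 21 and 0.168 to 0.650 in the other blood libraries, so 3 reads, taken as the floor of detection, stood for 21.2 normalised counts in Blood 21 (counting error only). Blood 21 also stood apart in its profile. Across the 3504 genes that averaged at least 100 normalised counts over the 4 blood libraries (called well-counted here), its log2 values correlated with those of the other libraries at Pearson's r = 0.580 to 0.612, while Blood 22 reached 0.906 and 0.903 with the MSC libraries and those reached 0.948 with each other (a description across genes, which are not independent). Blood 21 and Blood 22 lay at least 2-fold apart for 883 of these genes (25.2%), and Blood + MSC 23 and 24 for 94 (2.68%).

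The cells matched their label by most but not all markers. Csf3r, the receptor of the granulocyte growth factor, stood at 5695 and 9547 normalised counts in the Blood 21 and 22 libraries against 7249 and 5757 with MSC. Cxcr2, a chemokine receptor of mature neutrophils, was likewise among the abundant genes of every library. Mpo and Elane, of the azurophil granule, were at or near 0, and the 7 azurophil genes listed took 0.368 to 0.808% of reads, most of it Lyz2. Macrophage genes were present in all 4 libraries: the 20 listed took 0.729, 0.540, 0.573 and 0.774% of reads in library order, with C1qa at 1079 to 2438 normalised counts. T cell genes took 0.00112, 0.0111, 0.000946 and 0.00822% of reads, with 10 of 11 at 0 in Blood 21. The library with the clearest mark of another cell type was Blood 21, where 17 platelet and megakaryocyte genes took 2.25% of reads, against 0.0845, 0.0665 and 0.0605% in the others.

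**Figure D1:**
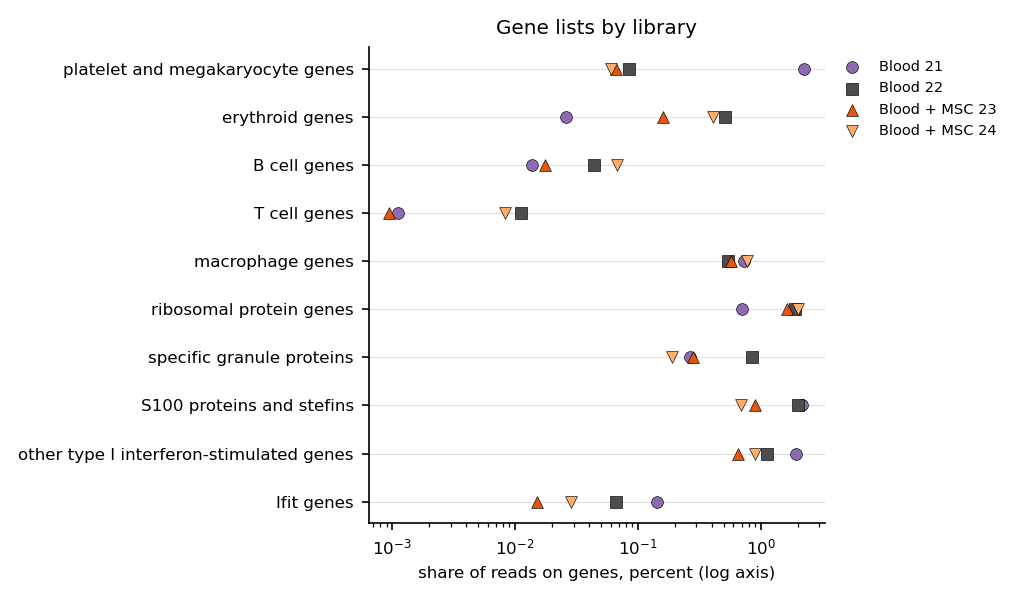
Share of all gene reads (percent, log axis) taken by 10 gene lists, with 1 symbol for each of the 4 blood libraries. Platelet genes are far to the right in Blood 21 (2.25%), where ribosomal protein (0.712%) and erythroid genes (0.026%) lie lowest, while the Ifit genes lie lower in both Blood + MSC libraries (0.015 and 0.0285%) than in both Blood libraries (0.144 and 0.0667%).

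Gene by gene, no difference between Blood + MSC and Blood passed the main test. Limma on log2(normalised count + 2), fitted to all 10 libraries, tested 11549 genes and called 0 (0%) at an adjusted p under 0.05 and a log2 fold change of at least 0.5, the lowest adjusted p being 0.672. At an unadjusted p under 0.05 it counted 502 genes higher (4.35%) and 346 lower (3%). The quasi-likelihood test of edgeR on reads recovered from the normalised counts also called 0 genes (lowest adjusted p 0.0923, with 329 higher and 571 lower at an unadjusted p under 0.05). DESeq2 on the same reads called 4 genes higher (0.0346%) and 175 lower (1.52%). The 4 were Cxcl13, Fn1, Scimp and Stard9, named here because they are few. Of the 175, 12 were platelet genes, 5 were Ifit genes and 1 was another listed interferon-stimulated gene, and 157 lay at least 2-fold below Blood 21 in both Blood + MSC libraries, 53 below Blood 22, and 35 below both. An exact permutation test of 2 against 2 libraries cannot go below p = 0.333 for any single gene.

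The pair of Blood libraries therefore had to be read apart. For each well-counted gene, both Blood + MSC libraries were asked to lie at least 2-fold (1 unit of log2(normalised count + 2)) above or below a given Blood library, a count with no test. Against Blood 21, 304 genes were higher (8.68%) and 254 lower (7.25%). Against Blood 22, 19 were higher (0.542%) and 142 lower (4.05%). Against both, 3 were higher (0.0856%) and 38 lower (1.08%). With each library scaled by its total reads instead, the counts against both were 11 higher and 14 lower, all 14 among the 38 and the 3 among the 11, and the median log2 fold change of all genes tested moved from 0.11 to 0.38. Without a size limit, the groups did not overlap for 374 well-counted genes with Blood + MSC higher (10.7%) and 820 with Blood + MSC lower (23.4%).

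**Figure D2:**
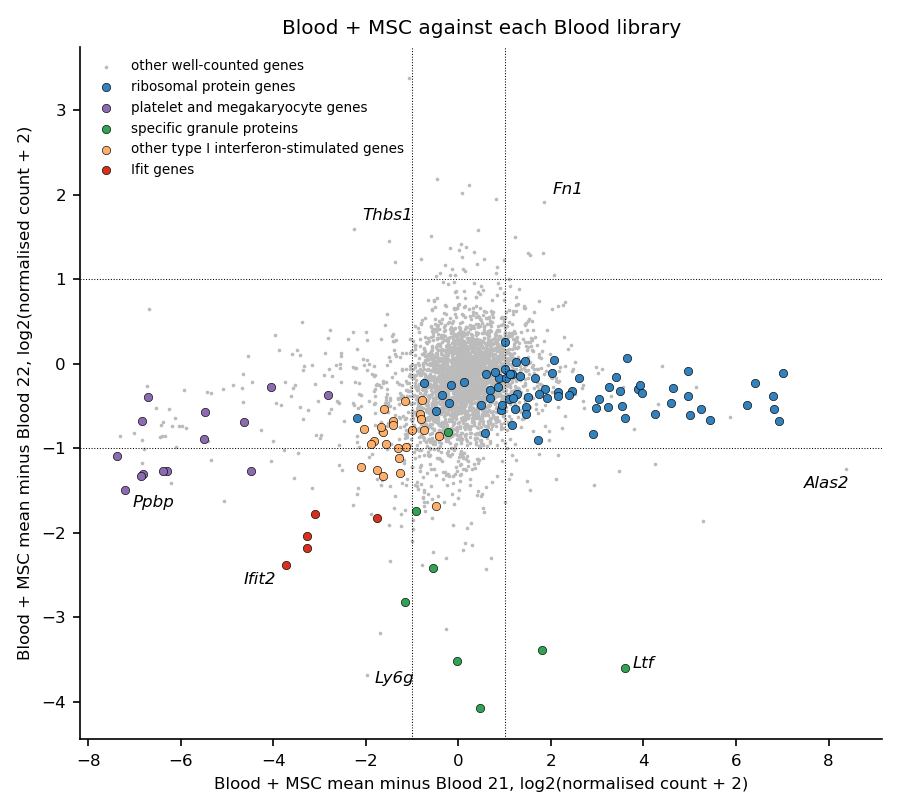
Mean of the 2 Blood + MSC libraries minus Blood 21 (horizontal axis) and minus Blood 22 (vertical axis), in log2(normalised count + 2), for the 3504 well-counted genes, with 5 gene lists in colour and dotted lines at 2-fold. Ifit genes lie lower left, apart from both Blood libraries, whereas platelet genes spread much farther on the horizontal than on the vertical axis, ribosomal protein genes lie to the right, away from Blood 21, and specific granule genes lie low on the vertical axis, away from Blood 22.

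Fn1 (chr1:71624673-71692419 in GRCm39, minus strand), which encodes the matrix protein fibronectin, was the highest-counted of the 3 genes above both Blood libraries. It stood at 1116 and 1063 normalised counts in the Blood 21 and 22 libraries against 2714 and 5942 with MSC. The Blood values were close to each other and both MSC values lay more than 2-fold above them, although the MSC pair itself differed by more than 2-fold. The log2 fold change was 1.88 (SE 0.56), 1.92 without Blood 21 and 1.84 without Blood 22. DESeq2 gave an adjusted p of 0.00638, and the other fits gave 0.0403 (DESeq2 without Blood 22), 0.0814 (DESeq2 without Blood 21), 0.255 (edgeR), 0.597 (edgeR without Blood 21) and 0.672 (limma). Of the 9 well-counted genes listed as fibronectin and its receptors, Fn1 alone was past 2-fold against both Blood libraries. Itga5, the fibronectin-binding integrin chain, was at 63.6 and 107 in Blood versus 168 and 112 in Blood + MSC.

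Stard9, a kinesin-like microtubule motor, read 49.5 and 71.5 without MSC against 183 and 178 with MSC (log2 fold change 1.57, SE 0.31), with only 7 reads behind the Blood 21 value. Saa3, an acute-phase serum amyloid A protein made by activated myeloid cells, read 311 and 358 against 729 and 1087 (1.41, SE 0.43). The 7 genes next in rank by their smallest distance from any Blood library fell just short of 2-fold against 1 of the Blood libraries. They were Lrp1 (191 and 389 against 759 and 854), the complement components C4b (84.8 and 102 against 197 and 325) and C3 (205 and 276 against 528 and 494), the secretory kinase gene Fam20c, the mitochondrial phosphatase gene Pptc7, the leukotriene receptor gene Cysltr1 and the ubiquitin ligase gene Dtx4. The log2 fold changes of these 7 ran from 0.95 in Dtx4 to 1.56 in Lrp1.

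Cxcl13, the B cell-attracting chemokine, was too low to enter that count and is 1 of the genes the study named for blood. It had 0 reads in Blood 21, 1 in Blood 22, 111 in Blood + MSC 23 and 353 in Blood + MSC 24, or 0, 0.650, 29.2 and 59.4 normalised counts. With the reads of each group pooled and set against depth, the ratio was 80.0 with an exact 95% interval of 14.3 to 3.17e+03, which covers counting error only. The limma estimate was 4.25 (SE 0.87), and no adjusted p was given by DESeq2 once Blood 21 was left out. Its receptor gene Cxcr5 read 7.07 and 33.1 in Blood versus 11.8 and 32.1 in Blood + MSC, which overlap, and the B cell genes as a list took 0.0138, 0.0438, 0.0175 and 0.0677% of reads. Epha2, an ephrin receptor, was another low gene of this kind, at 7.07 and 7.15 against 31.5 and 50.8 (2.21, SE 0.50), with 1 read in Blood 21. Bcl2a1d also had this shape, at 7.07 and 8.45 against 33.1 and 27.6 (1.73, SE 0.46), again with 1 read in Blood 21. Marco had 1 read in Blood 21 and 0 in Blood 22 against 26 and 102 with MSC. Its pooled ratio was 22.1, with an exact 95% interval of 3.89 to 878.

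**Figure D3:**
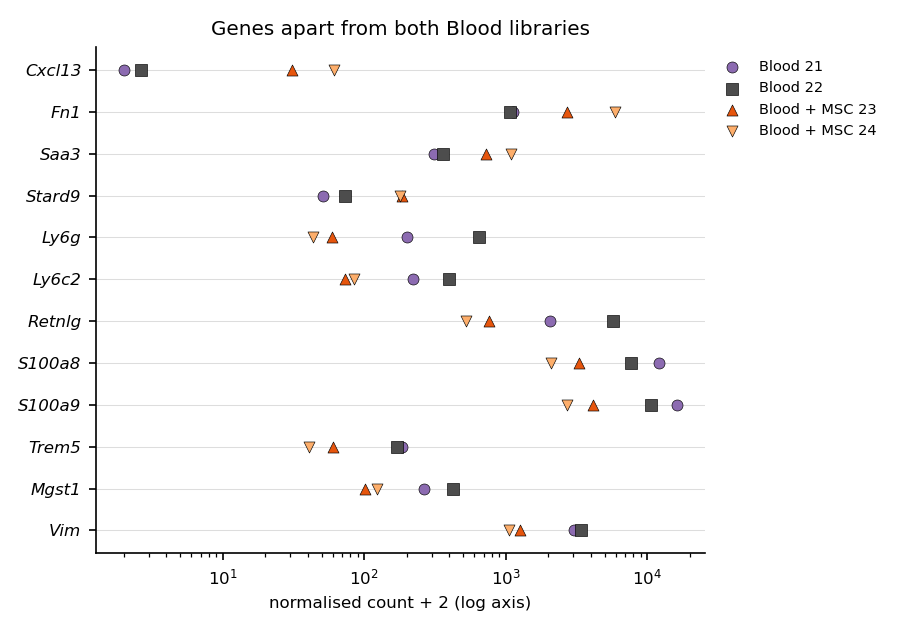
Normalised count + 2 (log axis) of 12 genes in each of the 4 blood libraries, with 1 symbol per library. For the upper 4 genes (Cxcl13, Fn1, Saa3, Stard9) both Blood + MSC symbols lie to the right of both Blood symbols, and for the lower 8 (among them Ly6g, 198 and 645 against 57.0 and 41.2) to the left.

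Ly6g, the gene of the antigen used to select these cells (chr15:75027089-75030982 in GRCm39, plus strand), came second only to Ifit2 among well-counted coding genes in its smallest distance below the Blood libraries. It read 198 in Blood 21 and 645 in Blood 22 but 57.0 and 41.2 in the MSC libraries. The MSC values were close together and lay below both Blood values, which themselves differed by more than 3-fold. The ratio of means was 8.58 and the log2 fold change -2.83 (SE 0.57), -3.68 without Blood 21 and -1.98 without Blood 22. It was 1 of 2 genes, with Ifit3, that DESeq2 called lower without Blood 21 and again without Blood 22, and the only gene that edgeR called in both of those fits, named here because they are so few. Its adjusted p ran from 4.54e-10 (DESeq2 without Blood 21) through 0.000127 (DESeq2), 0.0258 (DESeq2 without Blood 22) and 0.0923 (edgeR) to 0.672 (limma).

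All 3 well-counted members of the Ly6 family, small anchored proteins of the leukocyte surface, lay below both Blood libraries without overlap (background 23.4%). Ly6g itself is 1 of the 3. Ly6c2, of monocytes and younger neutrophils, read 219 and 398 against 71.7 and 83.3, past 2-fold against both. Ly6e read 2466 and 2038 against 1172 and 1123, past 2-fold against Blood 21 only. Ly6a, below the count limit, read 84.8 and 114 against 34.9 and 54.0. The median over the 7 tested members was -1.14, beside 0.11 for all genes tested. Ly6g6f, a platelet member of the family, belongs with the platelet genes described further on.

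Among 17 mature neutrophil receptors, 9 of 16 well-counted members were lower without overlap (background 23.4%), and 2 were past 2-fold against both Blood libraries, Ly6g and Fpr1. Fpr1, the receptor for bacterial formyl peptides, read 756 and 1101 against 377 and 271. Csf3r overlapped between the groups, and Cxcr2 (4847 and 4862 against 3353 and 2527) was lower by less than 2-fold. The list median was -0.49, and -0.19 when libraries were scaled by total reads. Relative to the median of all genes it was -0.60, and -0.57 with that scaling.

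The Ifit genes lay below both Blood libraries. All 5 well-counted members were at least 2-fold below Blood 21 and below Blood 22 in both MSC libraries, where 1.08% of all well-counted genes were. Ifit2 read 389 and 151 in Blood versus 18.4 and 40.0 in Blood + MSC, and Ifit1 read 918 and 368 against 78.5 and 141. Ifit3 read 608 and 281 against 44.1 and 83.3. Ifit3b, its near-identical neighbour, read 445 and 188 against 32.05 and 60.9, and reads could be split between these copies, so their separate values are uncertain. Ifit1bl2 read 226 and 237 against 66.2 and 65.1. In the first 4 of these Blood 21 was above Blood 22 and Blood + MSC 24 above Blood + MSC 23, yet the higher MSC library stayed below the lower Blood library in each.

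The log2 fold changes were -3.06 (SE 0.68) in Ifit2, -2.73 (SE 0.48) in Ifit3, -2.66 (SE 0.61) in Ifit3b, -2.44 (SE 0.62) in Ifit1 and -1.79 (SE 0.83) in Ifit1bl2. Ifit1bl1, below the count limit, gave -2.39 (SE 0.61). DESeq2 called 5 of the 6 lower. For Ifit3 its adjusted p was 0.000184, 0.0345 without Blood 21 and 2.59e-07 without Blood 22, while edgeR gave 0.150 and limma 0.672. The list median was -2.55, -1.93 against Blood 22 alone and -3.19 against Blood 21 alone. The study itself chose Ifit1, Ifit2, Ifit3 and Ifit3b from these libraries, so their direction here is no independent evidence. It also measured Ifit2, Ifit3, Fn1, Cxcl13 and S100a9 by RT-qPCR in blood neutrophils of an expanded cohort. There it reported shifts in the directions of its sequencing, most of them not significant gene by gene.

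The genes lie side by side on chromosome 19. In the GRCm39 assembly Ifit2 is at chr19:34527932-34554524, Ifit3 at chr19:34560899-34566443, Ifit3b at chr19:34585328-34590801 and Ifit1 at chr19:34618271-34632174, all on the plus strand, with Ifit1bl2 on the minus strand at chr19:34594449-34639833, a span that holds Ifit1 and was counted apart from it by strand. Their promoters are shown because the letters of the interferon-stimulated response element recur in them. RefSeq promoter windows (GRCm38.p6, 250 bases before to 50 after a gene's start) were searched on both strands for GAAANNGAAA, a core of that element. Below are the 250 bases before the start of Ifit1 (chr19:34640639-34640888), Ifit3 (chr19:34583279-34583528) and Ifit3b (chr19:34607707-34607956), plus strand, written 5′ to 3′ with each match in capitals.
Ifit1: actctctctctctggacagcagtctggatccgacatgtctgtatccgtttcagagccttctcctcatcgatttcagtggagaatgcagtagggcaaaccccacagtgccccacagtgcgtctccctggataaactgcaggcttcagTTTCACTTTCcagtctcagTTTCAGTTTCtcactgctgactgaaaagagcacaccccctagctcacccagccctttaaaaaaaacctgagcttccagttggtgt
Ifit3: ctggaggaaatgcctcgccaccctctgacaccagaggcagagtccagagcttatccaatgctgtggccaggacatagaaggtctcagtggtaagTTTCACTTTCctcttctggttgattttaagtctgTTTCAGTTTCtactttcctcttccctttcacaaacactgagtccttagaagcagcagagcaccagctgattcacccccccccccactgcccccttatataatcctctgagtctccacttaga
Ifit3b: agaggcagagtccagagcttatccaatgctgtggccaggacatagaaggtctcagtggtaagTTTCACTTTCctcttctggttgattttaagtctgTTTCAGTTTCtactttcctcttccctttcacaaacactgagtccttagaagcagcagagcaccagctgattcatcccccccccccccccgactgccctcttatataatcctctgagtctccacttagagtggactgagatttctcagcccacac

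Each of the 3 holds 2 matches, read here from the opposite strand, which begin 104 and 85 bases before the start in Ifit1, 156 and 122 in Ifit3 and 188 and 154 in Ifit3b. The Ifit3 and Ifit3b windows share an identical stretch of 169 bases. Of all 27025 genes with a window, 1079 (3.99%) held a match, against 5 of the 6 Ifit genes. Ifit2, the exception, had 2 windows in the table and a match in neither. The windows of Ifit1 and Ifit1bl2 overlap by 245 bases on opposite strands, so that both are counted for the same matches. A match was found in 13 of the 24 other type I interferon-stimulated genes with a window (54.2%), in 10 of 16 interferon gamma response genes (62.5%), in 2 of 3 NADPH oxidase genes, in 6 of 31 genes with a window among the 38 below both Blood libraries (Ifit1, Ifit1bl2, Ifit3, Ifit3b, Itga2b and Oas3) and in 0 of 12 S100 and stefin genes. A match is a description of the letters and not of binding.

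Interferon-stimulated genes outside the Ifit cluster were lower as well, by smaller amounts. All 24 well-counted members lay below both Blood libraries without overlap, as did 33 of the 35 tested, where the same held for 23.4% of well-counted genes and 15.4% of all genes tested. The exceptions were Ms4a4c and Phf11d, both under the count limit. All 35 had a negative log2 fold change, from -0.55 in Phf11d to -1.78 in Xaf1, as did 4815 of all 11549 genes tested. In limma 18 of the 35 were lower at an unadjusted p under 0.05 (background 3%). At 2-fold, 14 of the 24 passed against Blood 21 (background 7.25%), 3 against Blood 22 (background 4.05%) and 2 against both (background 1.08%). The median was -1.08, and -0.95 against Blood 22 alone and -1.28 against Blood 21 alone. Relative to the median of all genes it was -1.20, and -1.16 when libraries were scaled by total reads.

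The 2 genes past 2-fold against both were Irf7 and Oas3. Irf7, the transcription factor that amplifies interferon production, read 650.0 and 530.2 in Blood versus 182 and 241 in Blood + MSC (-1.48, SE 0.44). Oas3, a sensor of double-stranded RNA, read 1053 and 1079 against 409 and 472 (-1.27, SE 0.56). In both genes the Blood libraries were near each other. Samd9l, an interferon-induced inhibitor of translation that was on no list, read 1159 and 1125 against 507 and 509.8. Slfn4, the highest-counted member, read 18017 and 7404 against 4267 and 4439, past 2-fold against Blood 21 only.

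Interferon receptors and sensors did not share the pattern as a list. None of the 11 well-counted receptors and sensors was past 2-fold against either Blood library, 3 were higher and 3 lower without overlap (background 10.7% and 23.4%), and the median over the 14 tested was 0.05. Ifnar1 read 389 and 371 in Blood versus 460.2 and 436 in Blood + MSC, and Ifnar2 read 148 and 159 against 120.0 and 140.5. Tlr7 and its adaptor Myd88 were the lowest relative to Blood, at 163 and 181 against 85.1 and 108 for Tlr7. Tlr8, a related RNA sensor on no list, was past 2-fold against both Blood libraries at 268 and 334 against 129 and 115.

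Genes of the interferon gamma response were mixed. Of 9 well-counted members, 5 were lower without overlap (background 23.4%), 3 were past 2-fold against Blood 21 (background 7.25%), 1 against Blood 22 (background 4.05%) and 0 against both (background 1.08%), and the median was -0.48. Igtp, a GTPase of cell-autonomous defence, read 883 and 187 against 79.9 and 133, and Gbp2 read 289.7 and 486 against 160.5 and 183. Irf1, a transcription factor induced by interferon gamma, read 438 and 469 against 473 and 452 and overlapped.

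**Figure D4:**
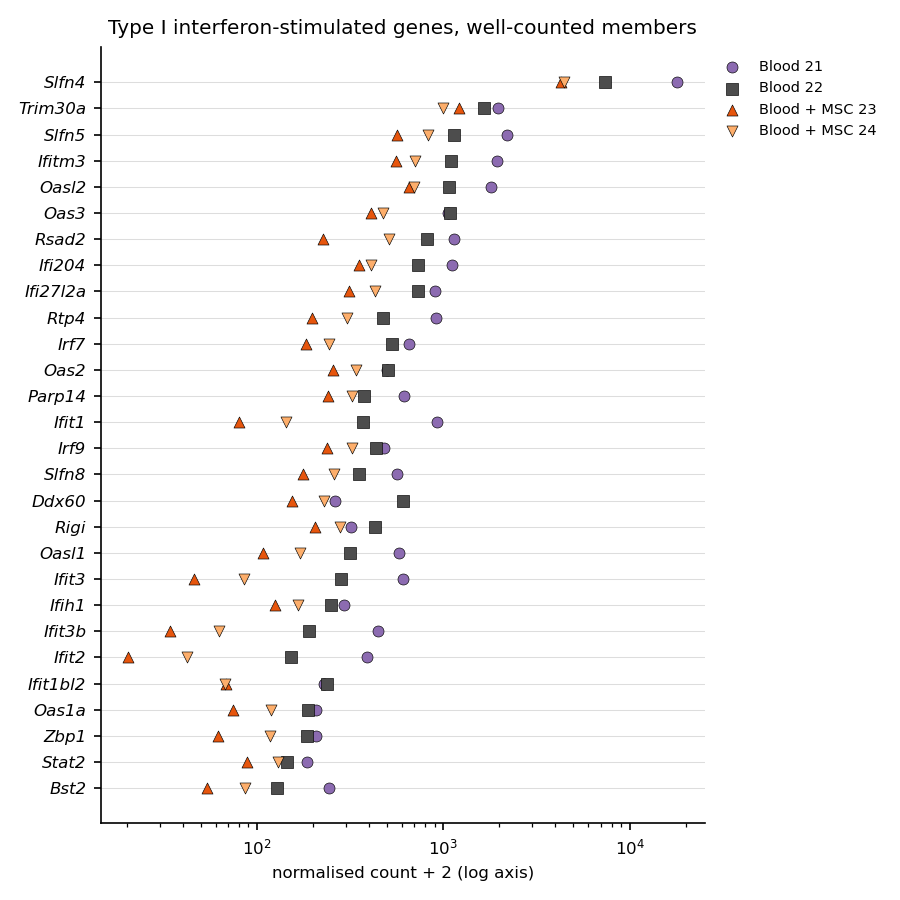
Normalised count + 2 (log axis) of the 5 Ifit genes and 23 of the 24 other type I interferon-stimulated genes that were well counted, with 1 symbol for each blood library. In every row both Blood + MSC symbols lie to the left of both Blood symbols, and the gap is widest for the Ifit genes (Ifit2, 389 and 151 against 18.4 and 40.0).

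S100 proteins and stefins, on a list that also held Retnlg, Wfdc17, Wfdc21 and Anxa1, lay below both Blood libraries in part. Of 12 well-counted members, 8 were lower without overlap (background 23.4%), 5 were past 2-fold against Blood 21 (background 7.25%), 10 against Blood 22 (background 4.05%) and 4 against both (background 1.08%). S100a9 read 16229 and 10655 in Blood versus 4124 and 2729.6 in Blood + MSC (-1.97, SE 0.82), and its partner S100a8 read 12061 and 7659 against 3319.7 and 2073 (-1.87, SE 0.77). Retnlg, a resistin-like secreted protein of neutrophils, read 2042 and 5772 against 765 and 522 (-2.44, SE 1.12), and Stfa2l1, a stefin-type inhibitor of cysteine proteases, read 1823 and 1558 against 728 and 452. The Blood pair was closest in Stfa2l1 and farthest apart in Retnlg, where Blood 22 was the higher. The list took 2.15 and 2.004% of reads in Blood versus 0.897 and 0.686% in Blood + MSC. S100a10, by contrast, was lower mainly relative to Blood 21 (2268 and 488 against 324 and 349), and Wfdc21 and Stfa1 lay between the Blood libraries. The median of -1.11 was -1.51 against Blood 22 alone and -0.998 against Blood 21 alone, and -0.81 when libraries were scaled by total reads. Relative to the median of all genes it was -1.22, and -1.18 with that scaling. S100a9 and Retnlg were chosen by the study on these libraries.

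Other coding genes below both Blood libraries came from no list, apart from Slc2a3. Trem5, an immunoglobulin-like receptor of the TREM cluster, read 184 and 168 against 58.6 and 38.9 (-1.84, SE 0.61). Vim, the intermediate filament protein vimentin, read 3031 and 3432 against 1271 and 1062, and Cnn2, an actin-binding calponin, read 2190.3 and 1662 against 686 and 606. Mgst1, a membrane glutathione transferase, read 261 and 420.4 against 99.3 and 121, and Cmah, which makes a sialic acid variant, read 346 and 429 against 120.3 and 141. Tspo, a mitochondrial outer membrane protein, was at almost equal levels within each group, 1059.8 and 1047 against 466 and 463. Slc2a3, the glucose transporter GLUT3, read 3561 and 2184 against 946 and 656, and was the only one of 11 well-counted glycolysis and hypoxia genes past 2-fold against both. Stx11 (2084 and 641 against 266 and 200.1), a membrane fusion protein of granule release, and Tspan2 were lower mainly relative to Blood 21. Rnd1, Rasgrp2 and Prr13 completed these, with log2 fold changes of -1.71, -1.26 and -1.52. Across these genes the 2 MSC libraries stayed within 2-fold of each other.

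Platelet genes lay below the Blood libraries by very unequal amounts. Of 14 well-counted members, 13 were lower without overlap (background 23.4%). Past 2-fold against Blood 22 were 6 (background 4.05%), namely Ppbp, Tubb1, Treml1, Gp6, Gp5 and Itga2b. All 14 were past 2-fold against Blood 21 (background 7.25%). A gene can reach the count limit through Blood 21 alone, so that count was in part set by the filter. Ppbp, the precursor of platelet basic protein, read 15063 in Blood 21, 283 in Blood 22 but 108 and 91.4 in Blood + MSC. Itga2b, the platelet fibrinogen receptor chain that the study named, read 1420.1 and 151 against 69.9 and 54.2. The median was -3.20, -5.51 against Blood 21 alone and -0.76 against Blood 22 alone. Alox12 (2423 and 85.1 against 34.7 and 27.1), the platelet lipoxygenase, and Sh3bgrl2 (2275 and 42.9 against 19.96 and 15.98), on no list, shared this shape. The non-coding RNA gene Rn7sk, of the 7SK particle that holds back transcription elongation, read 11997 and 2603 against 1239 and 839, and the unnamed gene ENSMUSG00000118642 read 6161 and 565 against 222 and 148. In all of these Blood 21 was far above the other libraries, and Blood 22 kept a smaller difference of the same sign.

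A number of genes that the study named for blood had the same shape. Ly6g6f read 141 and 3.90 against 1.31 and 0.673, and Gchfr, which regulates tetrahydrobiopterin synthesis, 141 and 3.90 against 1.31 and 1.51. Pcp4l1 read 98.9 and 3.90 against 0.525 and 1.18, and Sytl4, a granule-docking protein, 184 and 6.497 against 3.94 and 3.70. Fasl, the death ligand, read 240.2 and 29.9 against 9.46 and 5.89. The values of Blood 21 rest on 14 to 34 reads in these 5 genes, and those of Blood 22 on 6 to 46. Gm24105, at 56.5 and 1.95 against 0 and 0.337, rested on 8 and 3 reads in Blood and was not tested. In all 6 Blood 21 lay far above the rest, as it did for the platelet list, whose part in these values was not tested.

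Differences from Blood 21 that Blood 22 did not show took in whole gene classes. Among 72 well-counted ribosomal protein genes, 48 were past 2-fold higher than Blood 21 (background 8.68%), 1 was lower (Rpl41) and 0 were past 2-fold against Blood 22 in either direction. Rplp2 read 0 in Blood 21, 277 in Blood 22 but 253 and 260.5 in Blood + MSC, at least 11.9-fold above Blood 21 at a floor of 3 reads. Rps21, Rpl38 and Rpl28 were likewise at 0 in Blood 21 only, with bounds of 11.1, 10.5 and 9.49. The list median was 0.74, 1.73 against Blood 21 alone and -0.35 against Blood 22 alone, so its sign turned with the library. Rpl41, the shortest ribosomal protein, went the other way at 2982 and 1021 against 694 and 615.

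Erythroid genes behaved likewise. All 6 well-counted members were past 2-fold higher than Blood 21 (background 8.68%). In that library 9 of the 11 erythroid genes measured had at most 3 reads, 5 of them 0. The median was 3.64 against Blood 21, which rests largely on values at its floor, and -1.22 against Blood 22. Alas2, the first enzyme of haem synthesis in red cells, read 0 and 1566 in Blood versus 350.4 and 1238 in Blood + MSC, at least 16.5-fold above Blood 21. Hbb-bs, an adult beta globin, read 177 and 3682 against 1084 and 1718, between the Blood libraries. On the other side, Gp9, Mmrn1, Cavin2, Myl9 and Fhl1 were the coding genes farthest below Blood 21 that did not pass against Blood 22. These are genes of platelets or of contractile and membrane structure, and Gp9 read 3201 and 39.0 against 21.01 and 13.97.

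Specific granule genes showed the reverse, a difference from Blood 22 that Blood 21 did not share. Of 8 well-counted members, 7 were past 2-fold below Blood 22 (background 4.05%) and 0 below Blood 21. A gene can reach the count limit through a high value in Blood 22, so that count was in part set by the filter. Camp, at 7.07 and 330 in Blood versus 84.3 and 9.59 in Blood + MSC, was such a gene. Cd177, a surface receptor stored in these granules, read 98.9 and 1133 in Blood versus 118 and 80.1 in Blood + MSC. Ltf, lactoferrin, read 7.07 and 1321 against 257 and 43.9, and Ngp read 84.8 and 2022 against 303 and 45.6. Mmp8, the neutrophil collagenase, came nearest to holding against both, at 1519 and 4783 against 958 and 480.0, with no overlap. Lcn2 (593 and 2171 against 455 and 361) and Pglyrp1 (834 and 1487 against 559 and 351) also had no overlap. The list median was -1.32, -2.81 against Blood 22 alone and -0.03 against Blood 21 alone, and the list took 0.266, 0.845, 0.283 and 0.189% of reads. Adpgk, an ADP-dependent glucokinase, had the shape of Cd177 at 134 and 995 against 132 and 93.4.

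Genes higher than Blood 22 only were few. Ptgs2, the inducible prostaglandin synthase, read 1286 in Blood 21, 57.2 in Blood 22 but 1644 and 228 in the MSC libraries. Its MSC libraries overlapped with its Blood libraries. Pmaip1, a BH3-only death gene, read 311 and 48.1 against 308 and 166. Clec4n, the fungal lectin receptor Dectin-2, read 438 and 117 against 685 and 383, and Siglecf, a sialic acid-binding receptor, read 268 and 121 against 623 and 360.1. The last did not overlap between the groups. Bhlhe40, a transcription factor, read 184 and 81.2 against 246 and 249, also without overlap.

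Against the pair of Blood libraries, 8 well-counted genes gave opposite answers at 2-fold. Higher than Blood 21 and lower than Blood 22 were Hbb-bs, Ltf, Stfa1, Cstdc5, Tkt and Gpi1. Tkt, of the pentose phosphate pathway, read 106 and 585 in Blood versus 222 and 232 in Blood + MSC, and Gpi1, a glycolytic isomerase, read 261 and 1424 against 624 and 527. Lower than Blood 21 and higher than Blood 22 were Thbs1 and Ptgs1, both also made by platelets. Thbs1, the matrix glycoprotein thrombospondin-1, read 2113 and 143 against 460.2 and 416, and Ptgs1, the constitutive prostaglandin synthase, read 636 and 79.9 against 193 and 257. The rule places both MSC libraries between the Blood libraries, so in these 8 they are nearer to each other by construction.

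**Figure D5:**
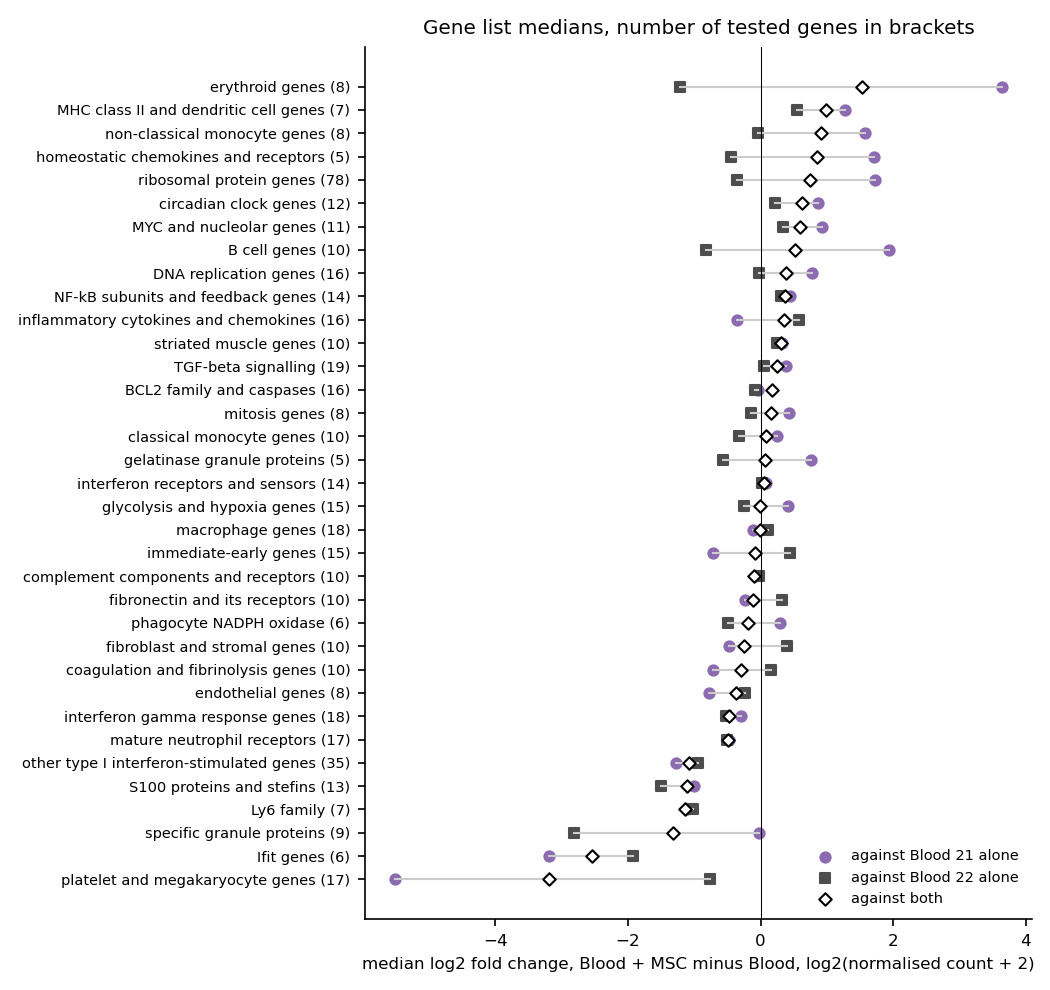
Median log2 fold change of each gene list with at least 5 tested genes, against Blood 21 alone (circles), Blood 22 alone (squares) and both (diamonds), in log2(normalised count + 2). Platelet (-5.51 and -0.76), erythroid (3.64 and -1.22) and ribosomal protein genes (1.73 and -0.35) have long lines between circle and square, whereas other type I interferon-stimulated genes (-1.28 and -0.95) have a short one left of 0.

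Several other lists showed little in either comparison. None of the 6 NADPH oxidase subunits, which make the respiratory burst, was past 2-fold against either Blood library, and all overlapped, as with Ncf1 at 1469.6 and 1973 against 2081 and 1783. Of 15 well-counted macrophage genes, a list drawn up after values had been seen, 3 were higher and 3 lower without overlap (background 10.7% and 23.4%), 0 were past 2-fold against both and the median was -0.01. Inflammatory cytokines and chemokines varied within the groups. Il1b read 6811 and 4563 against 7912 and 3003, and Cxcl2 read 678 and 264 against 1435 and 348. Of the 8 well-counted members of that list, 1 was past 2-fold higher than Blood 22 (Ptgs2), 1 past 2-fold lower than Blood 21 (Ccl6), and 0 against both. Ccl6 read 8761 and 6839 in Blood versus 4271 and 3716 in Blood + MSC. It was the only 1 of the 8 that was lower without overlap (background 23.4%). The 11 well-counted immediate-early genes all overlapped. T cell, NK cell, mitosis, basophil and striated muscle genes had no well-counted member and were too low to compare by this rule.

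The same contrast in the infarct, MI + MSC against MI with 3 libraries each, served to ask whether the blood differences were shared. No gene passed the limma test of the difference between the effects (0 of 11549, 0%, lowest adjusted p 0.627). At an unadjusted p under 0.05 limma counted 566 higher and 272 lower, and edgeR 463 and 396. Of the same 11549 genes edgeR called 0 and DESeq2 called 18 (3 higher and 15 lower). The median log2 fold change of the Ifit genes was -2.55 in blood and 0.21 in the infarct, that of the other type I interferon-stimulated genes -1.08 and -0.14, and that of S100 proteins and stefins -1.11 and 0.04. Fn1 gave 1.88 in blood and -0.34 in the infarct. Ly6g gave -2.83 and -1.18 and Retnlg -2.44 and -1.19, the same sign in both tissues. The list medians are values side by side, with no test of their difference. Of the 18 genes called by DESeq2 for the difference, Ppbp (-7.77), Pf4 (-3.37) and Tmsb4x (-3.25) had the lowest adjusted p (0.0199 each). Ppbp and Pf4 are platelet genes. Fn1, Ifit2 and Ifit3 were also among the 18 (adjusted p of 0.0375 each). Limma called none of these, while Ly6g and Retnlg passed neither test.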

How the data were processed

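Neutrophil RNA from blood and infarcted heart was sequenced in 10 libraries, of which the 4 from blood carry the comparison. Per the labels and the study's methods, the authors trimmed reads (Trimmomatic), removed duplicates (Picard), aligned to GRCm39 (STAR), counted strand-aware (featureCounts), dropped mitochondrial reads and normalised by DESeq2 size factors. The deposited values are thus a signal, counts divided by a size factor per library, for 28185 genes. A second deposited table, named as unnormalised, held the same value in all 281850 places. In each library 100% of values were whole multiples of what 1 read is worth (tolerance 0.01 reads), so whole reads were recovered for count tests. Depth ran from 268860 to 8602711 reads in blood.

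Genes with a mean of at least 10 normalised counts over all libraries (11549) were tested with limma 3.58.1 (trend) on log2(normalised count + 2) over all 10 libraries, with Benjamini-Hochberg adjustment and a log2 fold change of at least 0.5. Since this adds 2 before the logarithm, it understates changes of low genes. Alternatives were edgeR 4.0.16 (quasi-likelihood) and DESeq2 1.42.0 on the recovered reads, voom, other pseudocounts, filters and scalings, and leaving out each library. Fits were tested on simulated data. R 4.3.3 and Python 3.11.15 were used. GENCODE gave names for 27906 genes, and 279 IDs were not matched.

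Named genes were those the study names for blood, in each direction the 10 coding genes with the largest smallest difference over the 4 library pairs, the 5 that hold against only 1 Blood library, the 3 with the lowest limma p, and for each list up to 4 highest-counted members and those past 2-fold against both. Genes named outside this rule were chosen after their values were seen. The comparison, the rule and the 40 lists were chosen with earlier results of these data known, and 2 lists (macrophage and ribosomal protein genes) were added after seeing values. Of the listed genes, 2 count towards their lists but are not reported here.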

Additional observations from a re-analysis of the deposited data

Results flagged for a closer look

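Epha2, an ephrin receptor gene, separated the groups in opposite directions in blood and infarct. In blood it read 7.07 and 7.15 normalised counts without MSC treatment and 31.5 and 50.8 with it, and in the infarct 42.0, 26.0 and 24.2 without MSC treatment and 8.11, 13.8 and 18.3 with it. Every Blood + MSC library was above every Blood library and every MI + MSC library below every MI library. This pattern is what flagged the gene, so it lends no further support. The share of tested genes that separate in this way is not given here. The difference between the effects was 3.31 on the log2 scale (SE 0.64). The limma test of that difference gave an adjusted p of 0.630, so it did not pass. Only 1 read stood behind Blood 21 and 11 behind Blood 22.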

How the results depend on the processing

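The count of genes called between Blood + MSC and Blood depended on the tool and on the Blood library kept. Limma called 0, and leaving out each library gave 0 to 1506, the latter without Blood 22 (1113 higher, 393 lower, against Blood 21 as the lone control, assumed to vary like the other groups). DESeq2 called 179, DESeq2 on the blood libraries alone 32 and voom 8. Chosen after seeing the data, edgeR and DESeq2 called 17 and 37 without Blood 21, and 363 and 455 without Blood 22. For the difference between blood and infarct, limma gave 0 to 1095 when each blood library was left out, again highest without Blood 22, 0 without each infarct library (added after seeing the data), DESeq2 18, and 14 without Blood 21, and edgeR and DESeq2 228 and 313 without Blood 22. The cause was not tested.

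Genes past 2-fold above both Blood libraries (3) became 32 at a minimum log2 difference of 0.5, 0 at 2, 11 at a mean of at least 20, 5 with TMM scaling, 11 with library size scaling and 14 to 18 without a Blood + MSC library. Those below both (38) became 194, 0, 68 (19 at a mean of at least 500), 44, 14 and 67 to 93, where the lower number is without Blood + MSC 24 and the higher without Blood + MSC 23. A looser limit or fewer libraries admits more genes by construction. Leaving out each library moved the median log2 fold change of the Ifit genes from -3.19 (without Blood 22) to -1.93 (without Blood 21), of the other type I interferon-stimulated genes from -1.38 to -0.79, and of S100 proteins and stefins from -1.51 to -0.93. Library size scaling gave -0.79 and -0.81 for the last 2 lists, or -1.16 and -1.18 relative to the median of all genes. All 29 named genes tested kept their direction under the 10 alternatives run on them. Where the groups do not overlap, as in the genes named by their smallest difference, leaving out a library or changing the pseudocount cannot turn the sign. For those genes that outcome was fixed in advance.

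No paired analysis was possible because the numbers 21 to 24 are library numbers that the Blood and Blood + MSC groups do not share. With 2 libraries a group, and 268860 reads in 1 of them, absence of a call says little about genes of moderate change. A count of 0 in Blood 21 allows a level of up to 21.2 normalised counts.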
